A study of Arabidopsis thaliana with 66 samples.

Results

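Alternative oxidases, a partner dehydrogenase and a small set of mitochondrial stress genes were followed in roots of Arabidopsis thaliana exposed to thorium, a radioactive actinide metal, on media that differed in phosphorus. The set holds 9 genes of the 27313 in the deposited tables and was chosen by gene identity, with earlier results of these data known. Its members are the 4 alternative oxidases of the AOX1 family, AOX1A (AT3G22370), AOX1B (AT3G22360), AOX1C (AT3G27620) and AOX1D (AT1G32350), the dehydrogenase NDB2 (AT4G05020), the stress proteins UPOX (AT2G21640) and OM66 (AT3G50930), and the transcription factors NAC013 (AT1G32870) and NAC017 (AT1G34190). Alternative oxidase takes electrons from ubiquinol and passes them to oxygen, so that they bypass the proton-pumping cytochrome complexes of the respiratory chain, and NDB2 feeds it with electrons from NADH on the outer face of the inner mitochondrial membrane. When mitochondria are disturbed, NAC013 and NAC017, which are held in the membrane of the endoplasmic reticulum, are released, enter the nucleus and bind a short element called the mitochondrial dysfunction motif. The messenger RNAs of AOX1A, NDB2, UPOX and OM66 are widely used as reporters of this signal from mitochondria to the nucleus, known as retrograde signalling.

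The series compared Col-0, the reference accession, with 3 mutant lines named N8507, N8508 and N9416, whose mutated genes are not given in the labels. In the mock groups all plants had full medium, in the -P groups phosphate-free medium, and in the nanoP groups phosphate-free medium with nano-hydroxyapatite, a nanoparticle form of calcium phosphate. Each of these was also given with thorium (mock+Th, -P+Th, nanoP+Th), except that mock+Th libraries were analysed only in N8507 and N9416. All exposures lasted 14 days, and 66 RNA-seq libraries of whole roots fell into 22 groups of 3. The age of the plants at the start and the thorium dose are not stated in the sources used here. Nor do the labels say how the 3 libraries of a group relate as plants or plates, so every p-value below measures only the spread between these libraries.

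The mitochondrial dysfunction motif, through which some of these genes are known to be controlled, was looked up in the RefSeq genome sequence (TAIR10.1). Its letters were taken as CTTGNNNNNCAAG or CTTGNNNNNCACG, where N is any base, on either strand. The first form is its own reverse complement, so a match on both strands was counted as 1 site. In the 1000 bases before the first coding base, 5 of the 9 members held at least 1 match, against 4.39% of 27443 annotated genes. AOX1A, NDB2 and UPOX are known reporters of this signal, so matches there could be foreseen, and the count is no test. These windows of 30 bases, shown because they hold every match found in the members, are on the plus strand, which is also the strand of each gene, with the match in capitals:
AOX1A, upstream site: atctagctCTTGGCGACCACGcaagtatct
AOX1A, downstream site: tcttccatCTTGCTCTCCAAGaaaaatcta
UPOX: tttagtaaCTTGCTCTCCAAGgagatctag
NDB2, distal site: acccggttCGTGATGATCAAGaggtttcca
NDB2, proximal site: cgatctggCTTGGCCACCAAGattgtttga
NAC017: acctctgtCGTGTCAGACAAGaatgttgga
AOX1B: tgtcttttCGTGTGCTACAAGtcttttagt

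The AOX1A sites lie at chr3:7906510-7906539 and chr3:7906537-7906566, the first across the annotated transcript start and the other in the 5′ untranslated region. The first match begins 372 bases and the other 345 bases before the first coding base. The downstream AOX1A match and the UPOX match (chr2:9254319-9254348, 658 bases before the coding sequence and upstream of the annotated gene) are the same 13 letters. NDB2 has a proximal match at chr4:2572340-2572369 and a distal one at chr4:2571767-2571796, 404 and 977 bases before its coding sequence. NAC017 itself has a match at chr1:12451287-12451316, 434 bases before its coding sequence, and AOX1B one at chr3:7903971-7904000, 177 bases before it. No match was found in this window of AOX1C, AOX1D, OM66 or NAC013. A match is a description of letters and no evidence of binding, and no match says only that these letters are not in this window.

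Levels are given as TPM, the authors' value scaled to the length of the coding sequence and the size of the library, so that genes can be set against each other. Over the 66 libraries OM66, an AAA ATPase of the outer mitochondrial membrane, had a median of 44.8 TPM and the widest range of the abundant members, 5.21 to 399 TPM. NAC017 had a median of 42.9 TPM within a range of only 33.0 to 58.3 TPM. AOX1A had a median of 34.2 TPM (7.33 to 103.8) and NDB2 one of 26.2 TPM (6.71 to 90.1). NAC013 followed at 8.43 TPM (4.74 to 25.3) and UPOX, a small mitochondrial protein named for its induction by oxidants, at 5.40 TPM (1.32 to 25.2). The ranges of neighbours in this order overlapped throughout, so the order describes the medians only.

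The other 3 oxidases were scarce. AOX1C had a median of 0.273 TPM and reads in 46 of 66 libraries, and AOX1D one of 0.240 TPM, reads in 51 libraries and a highest level of 17.9 TPM. AOX1B had reads in 6 libraries, never more than 2, and was not tested. The AOX1B and AOX1C coding sequences are 84.2% identical and share 38 runs of 31 bases, so reads between these could be misplaced. AOX1A shares 73.2% with AOX1C and only 4 such runs, and AOX1D shares none of that length with any of the other three, so few reads could pass between AOX1A and its relatives by this measure. UPOX has a coding sequence of 315 bases and only 4 to 97 reads per library, so its values are coarse. Of the NDB2 reads 99.8% were assigned to its first transcript model, as were all of those of NAC013.

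Fold changes come from read counts scaled by TMM in edgeR and are log2 values with their SE, while the median gene's TPM differed between compared groups by -0.192 to 0.26 on the log2 scale. A fold change can therefore differ by that much, and for single genes by more, from the ratio of the TPM values. The threshold for a call was an adjusted p under 0.05. Assigned reads per library ran from 9.397 M to 16.76 M. Root markers were present as labelled, with reads for 5 of 5 (SHR, SCR, CASP1, COBL9, WER) in every library, while 7 green tissue genes summed to 7.42 to 51.2 TPM. Short effective transcript lengths set apart Col-0 -P+Th replicate 1 and replicate 3 of both N8507 -P+Th and N8507 nanoP (53.97% to 60.5% of coding length, against 64% or more in the others), and calls that changed without them are given below. N8507 mock replicate 3 stood apart in the members, with AOX1A at 35.9 TPM against 7.67 and 10.6 TPM in the other mock libraries of that line. Calls that changed without it are given below. Genes of the hypoxia response (8 genes such as ADH1, alcohol dehydrogenase) moved with thorium and also differed between media and genotypes without it. Their summed TPM is given below, and its part in the results was not tested. In whole roots, fewer cells of a type and less RNA per cell cannot be told apart.

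The question of the central comparison is what thorium does in roots without phosphate. In Col-0, -P+Th raised AOX1A, AOX1D, UPOX and NAC013 over -P. These are 4 of 7 members tested, all higher, where 25.4% of all genes tested passed in either direction. AOX1D, an isoform that is nearly silent in unstressed tissue, stood at 0.522, 0.779 and 0.574 TPM in the -P libraries and at 9.98, 17.9 and 7.82 TPM in the -P+Th libraries (log2 fold change 4.35 ± 0.60, adjusted p = 1.69e-04). AOX1A stood at 34.9, 22.1 and 27.5 TPM and at 56.9, 58.3 and 27.4 TPM (log2 fold change 0.92 ± 0.26, adjusted p = 0.0194). The AOX1D groups lie far apart, while 1 of the 3 AOX1A libraries with thorium stayed within the range without it. UPOX stood at 2.39, 2.9 and 4.78 TPM without and at 6.99, 16.5 and 8.6 TPM with thorium (log2 fold change 1.85 ± 0.60, adjusted p = 0.0352), from 8, 11 and 16 reads against 31, 60 and 33. NAC013 stood at 6.81, 5.51 and 7.47 TPM and at 8.67, 12 and 8.26 TPM (log2 fold change 0.57 ± 0.19, adjusted p = 0.0453). NDB2 (40.1, 37.4 and 25.3 TPM, then 40.4, 52.5 and 33.5 TPM) and OM66 (16.5, 58.3 and 99.4 TPM, then 23, 100.4 and 101 TPM) did not pass.

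The AOX1D call in Col-0 held in all 6 fits that left out 1 of the 6 libraries. The AOX1A call was lost without -P replicate 2 (log2 fold change 0.78, adjusted p = 0.0833) or -P+Th replicate 1 (log2 fold change 0.59, adjusted p = 0.084), the UPOX call without -P replicate 1, -P replicate 2 or -P+Th replicate 2 (1.57 to 1.78, adjusted p 0.0904 to 0.126), and that of NAC013 without -P replicate 1, -P replicate 2, -P replicate 3, -P+Th replicate 1 or -P+Th replicate 2 (0.43 to 0.65, adjusted p 0.0519 to 0.167). The summed hypoxia genes rose beside these members, from 732 ± 205 to 2060 ± 324 TPM (mean ± SD, n = 3), with 6 of 8 called higher, and their part in the result was not tested.

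N8507 had the highest alternative oxidase level of the series under this treatment. AOX1A rose from 22.8, 23.8 and 28.3 TPM on -P to 98, 72.9 and 104 TPM with thorium (log2 fold change 2.06 ± 0.41, adjusted p = 0.0011), and all 3 of these exceeded every other library of the series. AOX1D had 2 reads in the 3 -P libraries together and 584 reads with thorium (14.3, 11.7 and 10.6 TPM), a ratio of 328 with a counting interval of 90.5 to 2718 (95%, counting error only; adjusted p = 1.27e-05). NDB2 rose from 20.7, 16.8 and 18.4 to 46.1, 38.8 and 31.8 TPM (log2 fold change 1.07 ± 0.18, adjusted p = 2.78e-04). The oxidase and the dehydrogenase that feeds it thus rose in the same libraries, with no overlap between groups. OM66 rose from 10.2, 18.2 and 33.6 to 79.4, 70.8 and 72.1 TPM (log2 fold change 1.91 ± 0.52, adjusted p = 0.0101). NAC013 rose from 8.26, 7.08 and 6.27 to 20.03, 20.2 and 20.7 TPM (log2 fold change 1.53 ± 0.38, adjusted p = 0.00598). AOX1C had 2 reads in the -P libraries and 53 with thorium, a ratio of 29.8 (7.86 to 253). In all 6 of 8 members tested rose, against 29.8% of all genes. UPOX went from 6.38, 7.28 and 4.03 to 12.4, 9.29 and 17.6 TPM (log2 fold change 1.54 ± 0.65, adjusted p = 0.0872) and did not pass. Its value was 0.84 (adjusted p = 0.331) without the libraries of short effective length. In the fit of all 66 libraries UPOX passed (1.52, adjusted p = 0.025).

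Of these calls, that of AOX1C alone was lost when 1 library was left out, without -P replicate 1 or -P replicate 3 (adjusted p 0.0664 to 0.067). All 6 held without the libraries of short effective length. Unlike in Col-0, the summed hypoxia genes fell beside them, from 1195 ± 237 to 500.1 ± 59.5 TPM, with 5 of 8 called lower. Root markers fell as well, with 4 of 5 called lower and a sum of 368 ± 35.6 against 157 ± 30.9 TPM, and their part in the result was not tested.

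In N8508 every tested member but NAC017 rose, 7 of 8, where 47.2% of all genes passed. AOX1A rose from 22.2, 25.7 and 33.5 to 49.8, 55.3 and 48.5 TPM (log2 fold change 0.84 ± 0.20, adjusted p = 0.00338). AOX1D rose from 0.494, 1.2 and 1.29 to 7.29, 7.76 and 8.46 TPM (log2 fold change 2.91 ± 0.38, adjusted p = 1.76e-05). NDB2 rose from 26.3, 24 and 30.8 to 40.7, 44.9 and 41.7 TPM (log2 fold change 0.64 ± 0.16, adjusted p = 0.00479). These 3 had no overlap between groups, and neither did OM66, AOX1C, UPOX and NAC013 below. The share of all genes without overlap was not counted. OM66 rose from 13.6, 17 and 39.7 to 132, 197 and 282 TPM (log2 fold change 3.06 ± 0.48, adjusted p = 1.12e-04). AOX1C rose from 0.663, 0.465 and 0.216 to 3.24, 2.24 and 3.66 TPM (log2 fold change 2.70 ± 0.62, adjusted p = 0.00245). UPOX (4.36, 8.77 and 8.4 against 10.02, 19.97 and 15.6 TPM; log2 fold change 1.00 ± 0.35, adjusted p = 0.0289) and NAC013 (7.85, 9.21 and 10.5 against 13.2, 14.5 and 12.6 TPM; log2 fold change 0.51 ± 0.18, adjusted p = 0.0291) rose less. The call of UPOX was lost without -P replicate 1, -P+Th replicate 2 or -P+Th replicate 3 (0.75 to 0.98, adjusted p 0.0714 to 0.121) and that of NAC013 without -P replicate 1, -P replicate 2, -P+Th replicate 1 or -P+Th replicate 2 (0.37 to 0.52, adjusted p 0.0559 to 0.135), while the other 5 held in all 6 fits. The hypoxia genes summed to 1200 ± 67.4 TPM without and 911 ± 246 TPM with thorium, with 6 of 8 called lower.

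In N9416 neither AOX1A nor AOX1D passed with all libraries. AOX1A stood at 37.2, 34.8 and 32.8 TPM on -P and at 40.4, 39.6 and 41.4 TPM with thorium (log2 fold change 0.22 ± 0.09, adjusted p = 0.051), groups without overlap. It passed without -P replicate 1 (0.27, adjusted p = 0.0322). AOX1D stood at 0.261, 0.233 and 0.435 and 0.589, 0.909 and 1.13 TPM (log2 fold change 1.47 ± 0.62, adjusted p = 0.0681). UPOX rose from 1.35, 1.59 and 3.26 to 11.2, 11.4 and 10.7 TPM (log2 fold change 2.37 ± 0.66, adjusted p = 0.008), in every fit that left out a library. NDB2 rose slightly, from 28.1, 29.2 and 32.4 to 34.9, 35 and 34.1 TPM (log2 fold change 0.24 ± 0.09, adjusted p = 0.0433), a call lost without -P replicate 1, -P replicate 2, -P+Th replicate 1 or -P+Th replicate 2 (0.20 to 0.23, adjusted p 0.096 to 0.161). These 2 of 7 members tested stand against 40.0% of all genes, so the share called was below the background. OM66 was already high on -P in this line, at 386, 381 and 339 TPM, and stood at 136, 285 and 399 TPM with thorium (log2 fold change -0.44 ± 0.34, adjusted p = 0.328). NAC017 did not pass in any of the 4 genotypes on -P, with log2 fold changes of -0.09 (Col-0), 0.16 (N8507), 0.02 (N8508) and 0.03 (N9416). Hypoxia genes in N9416 summed to 768 ± 178 TPM on -P and 3423 ± 419 TPM with thorium, with 4 of 8 called higher.

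**Figure D1:**
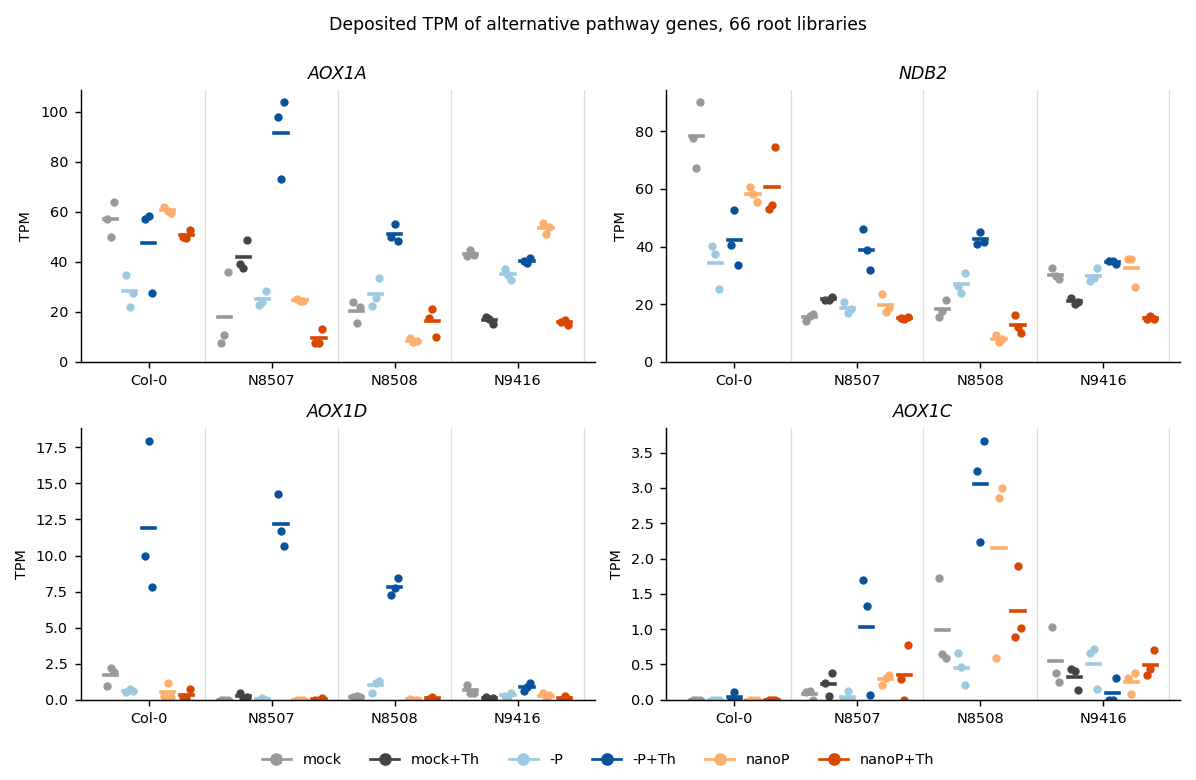
Deposited TPM of AOX1A, NDB2, AOX1D and AOX1C in each of the 66 libraries (points) with the mean of each group of 3 (bars), by genotype on the x axis and treatment in colour. The dark blue -P+Th points stand highest for AOX1D in Col-0, N8507 and N8508 and for AOX1A in N8507, while in N9416 AOX1A is lowest in the groups with thorium on full medium or with nanoP.

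Whether the response on -P differed from that of Col-0 was tested on the difference of the thorium effects, in a fit of all 66 libraries. In N8507 the effect was larger for AOX1D (difference in log2 fold change 3.73 ± 1.03, adjusted p = 0.00676), for AOX1A (1.10 ± 0.40, adjusted p = 0.0431) and for NDB2 (0.74 ± 0.24, adjusted p = 0.0196), 3 of 8 members against 20.4% of all genes. The AOX1D value rests on an N8507 -P group with 2 reads. Without the libraries of short effective length NAC017 passed as well (0.39, adjusted p = 0.0302). In N9416 the effect on AOX1D was smaller (-2.96 ± 0.89, adjusted p = 0.015), 1 of 8 members against 18.8%, and that on AOX1A did not pass (-0.78 ± 0.40, adjusted p = 0.172). In N8508 the effect on OM66 was larger (2.67 ± 0.81, adjusted p = 0.0177), 1 of 8 against 14.8%. For AOX1A and NDB2 in N8507, leaving out 1 of the 12 libraries ended the call in 7 and 5 of the 12 cases (adjusted p 0.0523 to 0.163 and adjusted p 0.0511 to 0.0821; namely without Col-0 -P replicate 1, Col-0 -P replicate 3, Col-0 -P+Th replicate 2, Col-0 -P+Th replicate 3, N8507 -P replicate 1, N8507 -P replicate 2 or N8507 -P+Th replicate 3 for AOX1A, and without Col-0 -P replicate 1, Col-0 -P replicate 2, Col-0 -P+Th replicate 3, N8507 -P replicate 2 or N8507 -P+Th replicate 1 for NDB2), as did a fit of only these genotypes (adjusted p = 0.174 and 0.0725). The N8508 call on OM66 was lost without Col-0 -P replicate 3, Col-0 -P+Th replicate 1, N8508 -P replicate 1 or N8508 -P+Th replicate 3 (adjusted p 0.0548 to 0.0839) and that on AOX1D in N9416 without N9416 -P replicate 3 (adjusted p = 0.0745). N8508 and N9416 libraries carry the numbers 193 to 225 and those of Col-0 and N8507 128 to 160, so genotype and library series cannot be told apart in these comparisons.

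With nano-hydroxyapatite in the medium, thorium moved the members in no common direction. In Col-0 and N8507, 0 members passed, where 0.105% and 4.65% of all genes did. Col-0 AOX1A stood at 62, 60.5 and 59.7 TPM with nanoP and 49.8, 49.4 and 52.7 TPM with nanoP and thorium (log2 fold change -0.26 ± 0.26, adjusted p = 1), and AOX1D at 0.237, 1.13 and 0.201 and 0.186, 0.127 and 0.717 TPM. The rise of AOX1D that thorium gave on -P was thus not seen in these 3 libraries. N8507 AOX1A stood at 25, 24.5 and 24.5 TPM and at 7.69, 7.33 and 13.2 TPM (log2 fold change -1.42 ± 0.41, adjusted p = 0.0594), groups without overlap that did not pass by edgeR but passed by DESeq2 (adjusted p = 0.0124) and in the fit of all 66 libraries (adjusted p = 0.000471). By edgeR 1 member in Col-0 and 1 in N8507 had an unadjusted p under 0.05, and DESeq2 called 0 and 1.

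The oxidase rose in N8508 and fell in N9416, a difference between the lines that was not tested. In N8508 AOX1A rose from 9.32, 7.71 and 8.22 to 17.5, 21.1 and 9.99 TPM (log2 fold change 1.06 ± 0.22, adjusted p = 0.00526). NDB2 rose from 9.16, 6.71 and 7.88 to 16.2, 12.1 and 9.93 TPM (log2 fold change 0.76 ± 0.17, adjusted p = 0.00873) and NAC013 from 7.77, 8.44 and 8.34 to 14.2, 17 and 11.7 TPM (log2 fold change 0.90 ± 0.18, adjusted p = 0.00347), in all 3 of 8 members against 16.4%. In N9416 AOX1A fell from 55.5, 51.1 and 54 to 15.8, 16.6 and 14.7 TPM (log2 fold change -1.82 ± 0.09, adjusted p = 4.73e-09). NDB2 fell from 35.7, 35.7 and 26.1 to 14.8, 15.9 and 14.9 TPM (log2 fold change -1.09 ± 0.09, adjusted p = 8.63e-07) and OM66 from 127, 155 and 161 to 36.7, 44.9 and 106 TPM (log2 fold change -1.23 ± 0.35, adjusted p = 0.0188), in all 3 of 7 against 21.7%. The falls of AOX1A and NDB2 held whichever library was left out, and so did the 3 rises in N8508. The fall of OM66 was lost without nanoP replicate 3, nanoP+Th replicate 1 or nanoP+Th replicate 2 (-1.13 to -0.95, adjusted p 0.0669 to 0.0881). Hypoxia genes summed to 2527 ± 559.8 TPM without and 6456 ± 1324 TPM with thorium in N8508 (6 of 8 called higher). In N9416 they summed to 704 ± 76.4 and 2976 ± 828 TPM (8 of 8), and their part in the results was not tested.

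The thorium effect with nanoP was then set against that on -P within each genotype. Every difference that passed was negative, that is, the effect was lower with nanoP. In Col-0 this was AOX1D (difference in log2 fold change -5.02 ± 0.95, adjusted p = 0.00448), 1 of 7 members against 7.72% of all genes. In N8507 it was AOX1A (-3.48 ± 0.58, adjusted p = 3.54e-04), NDB2 (-1.30 ± 0.25, adjusted p = 0.00135) and NAC013 (-1.67 ± 0.54, adjusted p = 0.0336), 3 of 8 against 24.0%. N8507 AOX1D, with 0 reads on nanoP, 2 on nanoP+Th, 2 on -P and 584 on -P+Th, did not pass by edgeR (adjusted p = 0.959) but did by DESeq2 (-6.80, adjusted p = 0.0033). In N8508 it was AOX1C (-3.33 ± 0.83, adjusted p = 0.00715) and OM66 (-2.32 ± 0.64, adjusted p = 0.0134), 2 of 8 against 28.8%. In N9416 it was AOX1A (-2.04 ± 0.12, adjusted p = 6.42e-08) and NDB2 (-1.33 ± 0.13, adjusted p = 3.45e-06), 2 of 7 against 20.4%. The Col-0 call on AOX1D was lost without nanoP replicate 2 (-3.76, adjusted p = 0.0578), and the N8507 call on NAC013 without -P replicate 2, -P replicate 3, -P+Th replicate 2, nanoP replicate 1, nanoP replicate 2, nanoP+Th replicate 1, nanoP+Th replicate 2 or nanoP+Th replicate 3 (adjusted p 0.0533 to 0.0732). The Col-0 value for AOX1A (-1.18 ± 0.36, adjusted p = 0.065) passed under DESeq2 (adjusted p = 0.0259), in the 66-library fit (0.0377) and without -P+Th replicate 3 (-1.48, adjusted p = 0.00161).

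**Figure D2:**
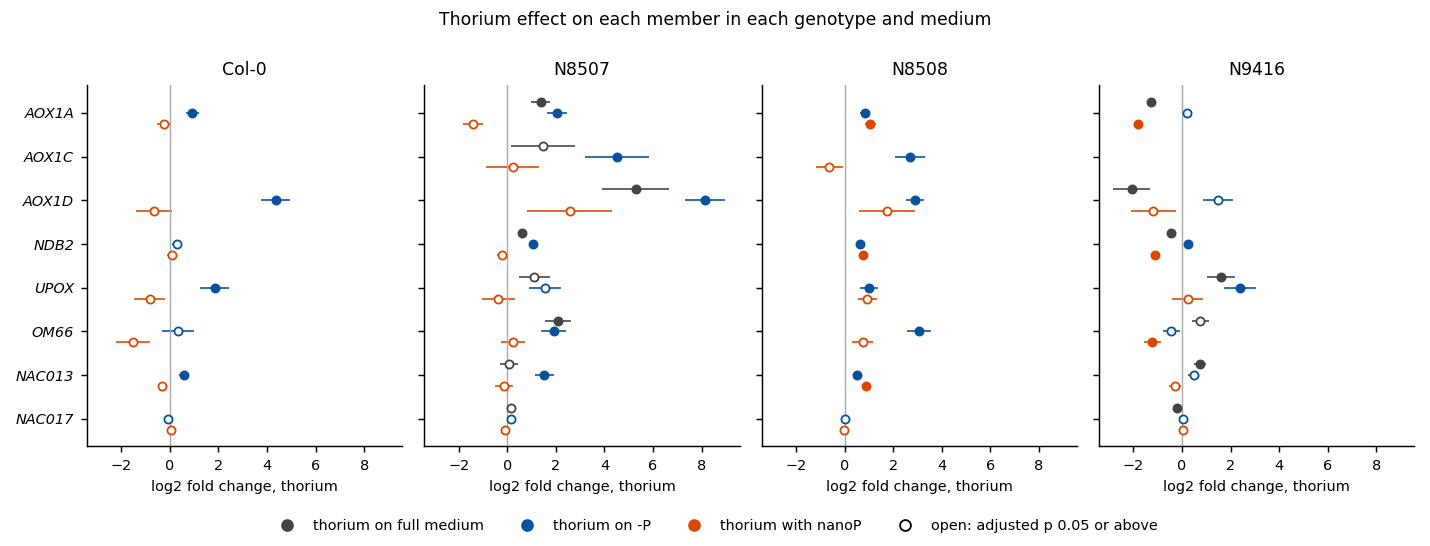
Log2 fold change of thorium (x axis, ± SE) for each tested member (y axis) in each genotype (panels), on full medium (grey), on -P (blue) and with nanoP (orange). Filled points had an adjusted p under 0.05. The filled blue points lie right of 0 in all panels, and the filled orange points lie right of 0 in N8508 and left of 0 in N9416. Fitted values of AOX1D and AOX1C in N8507 rest on groups with 0 to 4 reads and are no bounds.

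Set directly against -P+Th, the groups with nano-hydroxyapatite and thorium had lower levels of 4 to 6 members in each genotype. They share the -P+Th libraries with the comparison above, so each value is given for itself, as a log2 fold change with its SE. In Col-0 the members lower were AOX1D (-5.44 ± 0.66), UPOX (-2.46 ± 0.62), OM66 (-2.79 ± 0.73) and NAC013 (-0.52 ± 0.19), 4 of 7 against 37.7% of all genes called. Col-0 AOX1A, NDB2 and NAC017 did not pass, at 50.6 ± 1.77, 60.6 ± 12 and 52.2 ± 2.3 TPM with nanoP against 47.5 ± 17.4, 42.1 ± 9.65 and 38.5 ± 2.35 TPM on -P. In N8507 they were AOX1A (-3.53 ± 0.44), NDB2 (-1.38 ± 0.18), UPOX (-2.14 ± 0.67), OM66 (-2.21 ± 0.53) and NAC013 (-1.95 ± 0.39), and AOX1D, which had 2 reads against 584 (ratio 0.00281, interval 0.00034 to 0.0102), 6 of 8 against 36.0%. Without the libraries of short effective length NAC017 was also lower (-0.34, adjusted p = 0.0365) and UPOX did not pass (-1.42, adjusted p = 0.0907). In N8508 they were AOX1A (-1.68 ± 0.21), AOX1D (-6.21 ± 0.52), NDB2 (-1.76 ± 0.17) and OM66 (-1.76 ± 0.46), 4 of 8 against 49.1%, a share near the background. In N9416 5 of 7 were lower and 1 higher against 44.8%, namely AOX1A (-1.57 ± 0.09), AOX1D (-3.01 ± 0.77), NDB2 (-1.40 ± 0.09), OM66 (-2.31 ± 0.36), NAC013 (-0.60 ± 0.23) and NAC017 (0.18 ± 0.07). UPOX in N8507 was lost without -P+Th replicate 3, nanoP+Th replicate 1 or nanoP+Th replicate 3 (adjusted p 0.0586 to 0.113). NAC013 in Col-0 was lost without -P+Th replicate 1, -P+Th replicate 2, nanoP+Th replicate 2 or nanoP+Th replicate 3 (adjusted p 0.0633 to 0.152) and in N9416 was lost without -P+Th replicate 2, -P+Th replicate 3, nanoP+Th replicate 1, nanoP+Th replicate 2 or nanoP+Th replicate 3 (adjusted p 0.0635 to 0.153). NAC017 in N9416 was lost without -P+Th replicate 1, -P+Th replicate 3, nanoP+Th replicate 2 or nanoP+Th replicate 3 (adjusted p 0.0563 to 0.105). Among the genotypes the AOX1A groups stood furthest apart in N8507, at 7.69, 7.33 and 13.2 TPM against 98, 72.9 and 104 TPM. Hypoxia genes with nanoP+Th against -P+Th summed to 961.5 ± 196.5 against 2060 ± 324 TPM in Col-0 and 1160 ± 309 against 500.1 ± 59.5 TPM in N8507. In N8508 they summed to 6456 ± 1324 against 911 ± 246 TPM and in N9416 to 2976 ± 828 against 3423 ± 419 TPM. Root markers in the same groups summed to 333 ± 37.3 against 272 ± 22.45 TPM in Col-0 and 386 ± 18.8 against 157 ± 30.9 TPM in N8507. In N8508 the sums were 206 ± 9.55 against 194 ± 23.1 TPM and in N9416 317 ± 15.0 against 449 ± 44.45 TPM. The part of hypoxia genes and root markers in the result was not tested.

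On full medium thorium was given to N8507 and N9416 only among the libraries analysed, and AOX1A was lower with it in N9416 and higher in N8507, a difference between the lines that was not tested. In N9416 it fell from 42.4, 44.5 and 42.5 to 17.9, 17 and 15.1 TPM (log2 fold change -1.26 ± 0.09, adjusted p = 8.91e-09). NDB2 fell from 32.5, 29.7 and 28.7 to 22.1, 20.1 and 20.8 TPM (log2 fold change -0.45 ± 0.09, adjusted p = 6.26e-04), AOX1D from 1.01, 0.455 and 0.491 to 0.212, 0.0654 and 0.132 TPM (log2 fold change -2.08 ± 0.75, adjusted p = 0.0281) and NAC017 from 52.8, 52.7 and 50.4 to 41, 43.8 and 42.4 TPM (log2 fold change -0.19 ± 0.07, adjusted p = 0.02). UPOX rose from 4.76, 3.25 and 6.36 to 4.49, 23.2 and 11 TPM (log2 fold change 1.60 ± 0.58, adjusted p = 0.0282) and NAC013 from 10.7, 7.96 and 6.78 to 9.62, 20.7 and 9.89 TPM (log2 fold change 0.74 ± 0.23, adjusted p = 0.0121). AOX1A, AOX1D and NDB2 were thus called lower and UPOX higher in the same comparison, though 1 UPOX library with thorium (4.49 TPM) lay within the mock range. In all 6 of 7 members were called, against 51.7% of all genes. The calls of AOX1A and NDB2 held whichever library was left out. That of AOX1D was lost without mock replicate 1, mock+Th replicate 2 or mock+Th replicate 3 (adjusted p 0.0685 to 0.132), of NAC017 without mock replicate 1 or mock replicate 2 (adjusted p 0.052 to 0.0659), of UPOX without mock replicate 1, mock replicate 2 or mock+Th replicate 2 (adjusted p 0.0741 to 0.246) and of NAC013 without mock replicate 3 or mock+Th replicate 2 (adjusted p 0.0619 to 0.136). Hypoxia genes rose from 761 ± 301 to 4601 ± 1205 TPM (8 of 8 called higher), and 4 of 6 tested green tissue genes were higher, at a sum of 19.1 ± 1.39 against 27.3 ± 11.4 TPM, and their part in the result was not tested.

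In N8507 AOX1A stood at 7.67, 10.6 and 35.9 TPM in the mock libraries and at 38.9, 37.7 and 48.8 TPM with thorium (log2 fold change 1.37 ± 0.40, adjusted p = 0.0356). The groups do not overlap, but mock replicate 3 lay close to the thorium libraries. Without it the value was 2.28 (adjusted p = 0.000152), and the call was lost without mock replicate 1, mock replicate 2, mock+Th replicate 1, mock+Th replicate 2 or mock+Th replicate 3 (adjusted p 0.0596 to 0.17). OM66 stood at 12.4, 17 and 34.2 and 66.8, 72.9 and 101 TPM (log2 fold change 2.09 ± 0.52, adjusted p = 0.0139), or 2.59 without mock replicate 3, and was lost without mock replicate 1, mock replicate 2 or mock+Th replicate 3 (adjusted p 0.0594 to 0.0775). NDB2 stood at 14.3, 15.9 and 16.6 and 21.3, 21.4 and 22.4 TPM (log2 fold change 0.61 ± 0.18, adjusted p = 0.0347), a call lost whichever of the 6 libraries was left out (adjusted p 0.0653 to 0.119). AOX1D had 0 reads in the mock libraries and 15 with thorium, at least 4.77-fold higher when the mock group is set to a floor of 3 reads (adjusted p = 0.0265), and lost this call without mock replicate 1, mock replicate 2, mock replicate 3, mock+Th replicate 1 or mock+Th replicate 3 (adjusted p 0.0516 to 0.0867). These 4 of 8 members stand against 11.8%. NAC013 did not pass (log2 fold change 0.06 ± 0.37, adjusted p = 0.954) but did without mock replicate 3 (0.97, adjusted p = 0.0124). Hypoxia genes went the other way from those of N9416, from 4799 ± 2187 to 2121 ± 1058 TPM, with mock replicate 3 the highest at 7257 TPM. The green tissue genes summed to 14.9 ± 2.87 TPM in the mock and 31.8 ± 17.1 TPM in the mock+Th libraries, without overlap. Of 6 tested, 2 were called higher, and RBCS1A, a Rubisco small subunit gene, had 2 against 225 reads (ratio 107, interval 29.4 to 891). The part of either list in the result was not tested.

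Set against the effect on -P, the thorium effect on full medium in N9416 was lower for AOX1A (-1.48 ± 0.12), AOX1D (-3.55 ± 0.97) and NDB2 (-0.68 ± 0.13), 3 of 7 members against 12.9% of all genes. The call of AOX1D was lost without -P replicate 2 or mock replicate 1 (adjusted p 0.0522 to 0.073). That of NDB2 was lost in the fit of all 66 libraries (-0.65, adjusted p = 0.109). In N8507 edgeR called 0 of 8 members, where 13.7% of genes passed, and DESeq2 called 1. By edgeR 1 of the 8 had an unadjusted p under 0.05. Without the libraries of short effective length NDB2 was lower (-0.66, adjusted p = 0.0143).

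Phosphate removal without thorium moved few members. In Col-0 NDB2 fell from 77.7, 67.2 and 90.1 to 40.1, 37.4 and 25.3 TPM (log2 fold change -1.03 ± 0.20, adjusted p = 0.00498), 1 of 7 members against 6.61% of all genes. AOX1A went from 57.3, 49.9 and 64 to 34.9, 22.1 and 27.5 TPM (log2 fold change -0.85 ± 0.26, adjusted p = 0.0701), groups without overlap that did not pass here but did under DESeq2 (adjusted p = 0.0252) and without the library of short effective length (adjusted p = 0.0175). In N8507 0 of 8 members passed by edgeR, and 0 by DESeq2, against 3.90%, with 0 at an unadjusted p under 0.05, and without mock replicate 3 AOX1A was higher on -P (1.47, adjusted p = 0.00917). In N8508 AOX1D rose from 0.179, 0.243 and 0.195 to 0.494, 1.2 and 1.29 TPM (log2 fold change 2.32 ± 0.55, adjusted p = 0.015) and NDB2 from 15.6, 17.5 and 21.5 to 26.3, 24 and 30.8 TPM (log2 fold change 0.66 ± 0.17, adjusted p = 0.0204), 2 of 8 against 9.59%. These calls were lost without -P replicate 3, mock replicate 1 or mock replicate 3 for AOX1D (adjusted p 0.0544 to 0.0604) and without -P replicate 3, mock replicate 1 or mock replicate 2 for NDB2 (adjusted p 0.0724 to 0.104). In N9416 OM66 rose from 50.5, 67.2 and 63.4 to 386, 381 and 339 TPM (log2 fold change 2.82 ± 0.37, adjusted p = 1.65e-05) and NAC017 fell from 52.8, 52.7 and 50.4 to 34.5, 36.8 and 37.9 TPM (log2 fold change -0.29 ± 0.07, adjusted p = 0.00247), 2 of 7 against 38.1%, both in every fit that left out a library. Hypoxia genes on -P against mock summed to 732 against 1114 TPM in Col-0 and 1195 against 4799 TPM in N8507. In N8508 they summed to 1200 against 3882 TPM and in N9416 to 768 against 761 TPM, and their part was not tested.

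The lowest group mean of AOX1A in the series was that of N8508 with nano-hydroxyapatite and no thorium, within the range of N8507 nanoP+Th. In N8508 it stood at 9.32, 7.71 and 8.22 TPM, against 22.2, 25.7 and 33.5 TPM on -P (log2 fold change -1.90 ± 0.22, adjusted p = 1.06e-05) and 23.7, 15.4 and 21.8 TPM on mock (log2 fold change -1.37 ± 0.22, adjusted p = 3.43e-04). NDB2 in N8508 stood at 9.16, 6.71 and 7.88 TPM, lower than on -P (log2 fold change -1.88 ± 0.17, adjusted p = 1.15e-06) and than on mock (log2 fold change -1.22 ± 0.17, adjusted p = 1.20e-04). AOX1D had 1 read with nanoP and 37 on -P in this line (ratio 0.0214, interval 0.000528 to 0.127; adjusted p = 1.26e-04), and AOX1C was higher with nanoP than on -P (log2 fold change 2.05 ± 0.64, adjusted p = 0.0198), a call lost without -P replicate 2, -P replicate 3, nanoP replicate 2 or nanoP replicate 3 (adjusted p 0.0501 to 0.0788). These 4 of 8 stand against 38.0% for nanoP against -P, and 3 of 8 were lower than on mock against 28.9%, with NAC013 (log2 fold change -0.69 ± 0.18, adjusted p = 0.00952) lost without mock replicate 1 (adjusted p = 0.0566). Hypoxia genes in N8508 summed to 2527 ± 559.8 TPM with nanoP, 1200 ± 67.4 TPM on -P and 3882 ± 614 TPM on mock, and their part was not tested.

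In Col-0 and N9416 nanoP had the opposite sign for AOX1A. Col-0 AOX1A stood at 62, 60.5 and 59.7 TPM, higher than on -P (log2 fold change 0.93 ± 0.26, adjusted p = 0.0477), 1 of 7 members against 6.10%. The call was lost without -P replicate 2, -P replicate 3, nanoP replicate 1, nanoP replicate 2 or nanoP replicate 3 (adjusted p 0.0974 to 0.22). Against mock, 0 of 7 members passed in Col-0 by edgeR and 0 by DESeq2, where 0.562% of genes did, with 2 at an unadjusted p under 0.05. N9416 AOX1A stood at 55.5, 51.1 and 54 TPM, above -P (log2 fold change 0.47 ± 0.08, adjusted p = 5.13e-04) and above mock (log2 fold change 0.39 ± 0.08, adjusted p = 0.00462). OM66 in N9416 stood at 127, 155 and 161 TPM, below -P (log2 fold change -1.52 ± 0.35, adjusted p = 0.00351) and above mock (log2 fold change 1.29 ± 0.35, adjusted p = 0.0193), the latter lost without mock replicate 1, nanoP replicate 2 or nanoP replicate 3 (adjusted p 0.0513 to 0.0814). That is 2 of 7 against 30.2% and 2 of 7 against 14.4%, and none of these 4 passed in the fit of all 66 libraries. In N8507 0 of 8 passed for nanoP against -P (4.49% of genes) and 0 of 8 against mock (3.05%), DESeq2 also called 0 in both, and 0 and 1 had an unadjusted p under 0.05. Without mock replicate 3, AOX1A was higher with nanoP than on mock in N8507 (1.42, adjusted p = 0.0171). Hypoxia genes with nanoP summed to 785.5 ± 258.1 TPM in Col-0, 625.7 ± 89.6 TPM in N8507 and 704 ± 76.4 TPM in N9416.

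**Figure D3:**
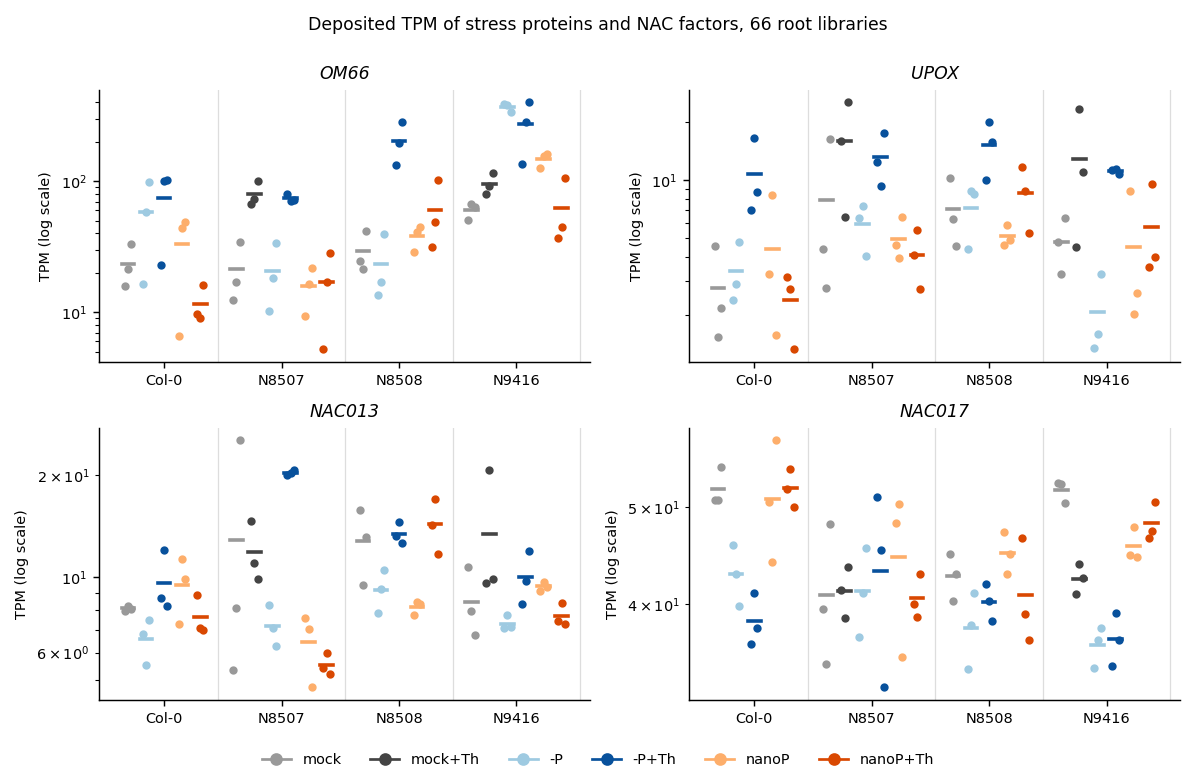
Deposited TPM of OM66, UPOX, NAC013 and NAC017 in each of the 66 libraries on a log scale (points) with group means (bars), by genotype and treatment. OM66 spans 5.21 to 399 TPM and differs within several groups of 3, while NAC017 stays between 33.0 and 58.3 TPM in all libraries.

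On full medium without thorium the lines differed from Col-0 in the alternative pathway. For N8508 and N9416, genotype and library series cannot be told apart here either. AOX1A stood at 57.3, 49.9 and 64 TPM in Col-0 and was lower in N8507, at 7.67, 10.6 and 35.9 TPM (log2 fold change -1.63 ± 0.29, adjusted p = 1.05e-05), and in N8508, at 23.7, 15.4 and 21.8 TPM (log2 fold change -1.42 ± 0.29, adjusted p = 1.16e-04). Without N8507 mock replicate 3 the N8507 value was -2.55 (adjusted p = 2.95e-10). N9416, at 42.4, 44.5 and 42.5 TPM, did not pass (log2 fold change -0.44 ± 0.28, adjusted p = 0.24). NDB2 stood at 77.7, 67.2 and 90.1 TPM in Col-0, 14.3, 15.9 and 16.6 TPM in N8507 (log2 fold change -2.24 ± 0.17, adjusted p = 4.42e-15), 15.6, 17.5 and 21.5 TPM in N8508 (log2 fold change -2.03 ± 0.17, adjusted p = 8.21e-14) and 32.5, 29.7 and 28.7 TPM in N9416 (log2 fold change -1.32 ± 0.17, adjusted p = 1.50e-08). All NDB2 libraries of the lines lay below those of Col-0. AOX1D had 78 reads in the Col-0 mock libraries and 0 in those of N8507, at least 25.8-fold lower. AOX1C had 0 reads in Col-0, 36 in N8508 (at least 15.7-fold higher) and 19 in N9416 (at least 8.61-fold higher). UPOX in N8507 (log2 fold change 1.54 ± 0.62, adjusted p = 0.0453) and NAC013 in N8507 (log2 fold change 0.70 ± 0.28, adjusted p = 0.0425) were called higher and NAC017 lower (log2 fold change -0.28 ± 0.10, adjusted p = 0.0267), but the first 2 rest on mock replicate 3. Without it UPOX was at 0.50 (adjusted p = 0.602) and NAC013 changed sign, to -0.22 (adjusted p = 0.495). On mock the hypoxia genes summed to 1114 ± 534 TPM in Col-0, 4799 ± 2187 TPM in N8507, 3882 ± 614 TPM in N8508 and 761 ± 301 TPM in N9416. Their part in these differences was not tested.

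In all, N8507 had 6 of 8 members called against 36.1% of genes, N8508 5 of 8 against 27.2% and N9416 3 of 8 against 31.8%. The further calls were AOX1D (log2 fold change -2.86 ± 0.67, adjusted p = 8.65e-04) and NAC013 (log2 fold change 0.72 ± 0.28, adjusted p = 0.0476) in N8508 and OM66 in N9416 (log2 fold change 1.46 ± 0.58, adjusted p = 0.0468). The call on NAC013 in N8508 was lost without Col-0 mock replicate 1, Col-0 mock replicate 2, Col-0 mock replicate 3, N8508 mock replicate 1 or N8508 mock replicate 3 (adjusted p 0.0981 to 0.204) and that on OM66 in N9416 without Col-0 mock replicate 1, Col-0 mock replicate 2, N9416 mock replicate 1, N9416 mock replicate 2 or N9416 mock replicate 3 (adjusted p 0.0544 to 0.165). NAC017 in N8507 was lost without Col-0 mock replicate 3, N8507 mock replicate 1 or N8507 mock replicate 2 (adjusted p 0.0808 to 0.326), UPOX there also without Col-0 mock replicate 2 (1.25, adjusted p = 0.166) or 3 (1.40, adjusted p = 0.133), and NAC013 there without each Col-0 mock library (adjusted p 0.0842 to 0.0918).

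Beyond the members, 11 other genes known to rise when mitochondrial function is disturbed had members that moved with thorium on -P in every genotype. Of those tested, 5 of 8 rose and 1 fell in Col-0, 7 of 10 rose in N8507, 9 of 10 rose and 1 fell in N8508, and 7 of 10 rose in N9416. Of all genes 25.4%, 29.8%, 47.2% and 40.0% were called in that order. Their median log2 fold changes were 2.41, 2.38, 2.17 and 2.27, beside medians over all genes of -0.02 to 0.01. GSTU25, a glutathione transferase, rose by 3.45 ± 0.62, 5.60 ± 0.85, 3.67 ± 0.33 and 2.70 ± 0.31 on the log2 scale in the same order, and may share reads with its neighbour and close relative GSTU24. UGT74E2, a glucosyltransferase that acts on an auxin, had 0 reads on -P and 523 with thorium in N8507 (at least 196-fold higher), and 0 and 70 in N9416 (at least 22.8-fold). With nanoP the same list had 0 of 8 called in Col-0, 1 of 10 in N8507 (HSP23.6, a mitochondrial small heat shock protein, 0 against 56 reads, at least 15.9-fold higher), 9 of 10 higher in N8508, and 1 higher and 1 lower of 10 in N9416, against 0.105%, 4.65%, 16.4% and 21.7% of all genes. On full medium it had 2 higher and 2 lower of 10 in N8507, against 11.8%, and 6 of 10 higher in N9416, near the 51.7% over all genes.

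Of the regulators around the NAC factors, WRKY63, a transcription factor known to act on AOX1A, rose with thorium on -P in Col-0 (3.98 ± 0.63), N8507 (4.52 ± 0.53) and N8508 (0.92 ± 0.30). WRKY40, known as a repressor of the same gene, rose in N8508 (2.25 ± 0.49) and, with nanoP, fell in N9416 (-1.90 ± 0.34). On -P, 1 of 8 regulators rose in Col-0 and in N8507, 4 rose and 2 fell in N8508, and 2 fell in N9416, against 25.4%, 29.8%, 47.2% and 40.0% of all genes. Only the share in N8508 lay above the background. In N9416 with nanoP 6 of 8 fell, against 21.7%, among them NAC016, a close relative of NAC017 (-0.93 ± 0.14). NAC016 and NAC017 share 15 runs of 31 bases, so reads between them could be misplaced.

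The main respiratory chain and its chaperones gave another picture. CYTC-1, a cytochrome c gene, rose with thorium on -P in all 4 genotypes, by 1.13 ± 0.21 (Col-0), 1.43 ± 0.46 (N8507), 0.88 ± 0.12 (N8508) and 0.52 ± 0.08 (N9416). Of 13 genes of this list, 2 rose in Col-0 against 25.4% of all genes called, 1 in N8507 against 29.8%. In N8508 6 rose and 1 fell, near its 47.2%. In N9416 12 rose against 40.0%, at a median of 0.38. On full medium 12 of 13 rose in N9416 (median 0.58) against 51.7%, where AOX1A and NDB2 fell, and 0 of 13 passed in N8507 against 11.8%. Among 8 other alternative dehydrogenases and oxidases, NDB4, an external dehydrogenase like NDB2, rose on -P in N8507 (3.25 ± 1.01) and N8508 (3.79 ± 0.70), and NDA2, an internal one, fell in N9416 on -P (-0.56 ± 0.11), on full medium (-1.31 ± 0.11) and with nanoP (-0.46 ± 0.11). Of 5 uncoupling proteins and dicarboxylate carriers, 3 fell and 1 rose with thorium on -P in N9416 against 40.0% of all genes, and 3 rose and 1 fell in N8508 against 47.2%.

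Across the 22 group means of log2 CPM (counts scaled to library size), with each genotype centred on its own mean, AOX1A and NDB2 varied most closely of all member pairs (Pearson r = 0.884, or 0.816 over the 66 libraries). UPOX and NAC013 followed (0.796 and 0.678), then UPOX and AOX1D (0.708 and 0.579). NAC017, the factor thought to start the response through its protein rather than its messenger RNA, had r between -0.29 and 0.273 with the other members. These are descriptions of points that share libraries and control groups, and carry no test.

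**Figure D4:**
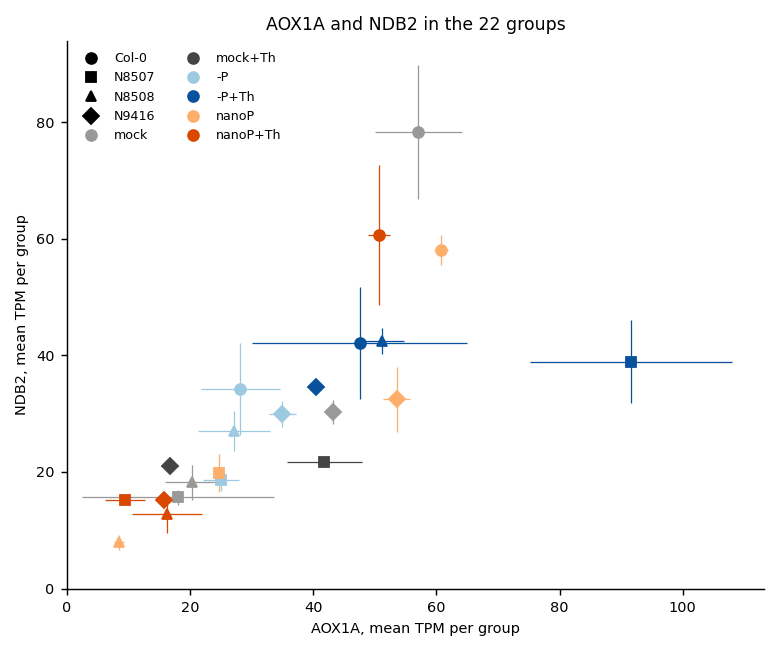
Mean TPM of AOX1A (x axis) and NDB2 (y axis) in each of the 22 groups, with SD over 3 libraries as bars, genotype as marker and treatment as colour. The N8507 -P+Th group is farthest right, and the groups with the lowest AOX1A also have low NDB2.

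Of 7378 genes with a mean of at least 5 CPM and a symbol, the pattern most like that of AOX1A belonged to ZIFL1, a membrane transporter (r = 0.929 over 22 group means), then GOX3, a glycolate oxidase family gene (0.919), POP2, the mitochondrial GABA transaminase (0.900), MMP, a metalloproteinase (0.894), GSTU7, a glutathione transferase (0.891) and UMAMIT37, a transporter (0.891). GOX3 was first also over the 66 single libraries (0.858), while UMAMIT37 dropped to 0.714. UPOX was most like SOT12, a sulfotransferase of the mitochondrial dysfunction list (0.933), followed by TH8 (0.907) and DIN2 (0.901, but 0.559 over the single libraries). OM66 was most like TCH4, a cell wall enzyme gene known to respond to touch (0.946), AGC2-1, a protein kinase (0.941) and ERF13, an ethylene response factor (0.941). NAC013 was most like UGT73B3, a glucosyltransferase (0.885), C/VIF1, an invertase inhibitor (0.871) and OPR2, an oxophytodienoate reductase (0.858).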

How the data were processed

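The 66 RNA-seq libraries were placed in 22 groups of 3 by the genotype and treatment of the sample labels. They were stranded libraries of total root RNA (NEBNext Ultra II Directional), per the labels' protocols. Trimmomatic, Salmon 1.3.0 and TAIR10 are named in the submitters' processing notes. The deposited tables hold the authors' estimated counts per coding model, not normalized, with 99.99% of lengths multiples of 3. Beside these are the authors' deposited TPM and effective lengths, the latter used here as a quality check. Estimated counts and deposited TPM were summed per locus, and counts rounded. Salmon's settings are not given in the sources used here.

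Counts were tested with edgeR 4.0.16 in R 4.3.3 (quasi-likelihood, two-sided, TMM, filterByExpr, Benjamini-Hochberg over all genes tested), in 1 fit per genotype of 19762 to 20241 genes, and in a fit of all 66 libraries (20839 genes) for comparisons between genotypes. The SE is the absolute log2 fold change over the square root of F. The fits of Col-0 and N9416 were also run on simulated counts with known changes, whose outcome is not given here. AOX1B was filtered from every fit and AOX1C from those of Col-0 and N9416. A group without reads was set to 3 reads for a bound. Counting intervals are exact and cover counting error only. DESeq2 1.42.0, no filter, 1 fit, only the genotypes compared, left-out libraries and libraries of short effective length left out were alternatives. Motifs came from RefSeq TAIR10.1, whose coding lengths match those of all 9 members. Since the files name TAIR10, these windows carry the TAIR10.1 name throughout. The members, lists and tests were chosen with earlier results of these data known. All members were named. Of other lists, up to 3 called genes with the largest change per comparison could be named, and for likeness 6 genes for AOX1A and 3 each for UPOX, OM66 and NAC013. GSTU24 is named only as a close relative.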

Additional observations from a re-analysis of the deposited data

Results flagged for a closer look

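The thorium effect on -P differed from that of Col-0, by the test of the difference, in 5 cases. As differences in log2 fold change they were AOX1A in N8507 (1.10), AOX1D in N8507 (3.73), NDB2 in N8507 (0.74), OM66 in N8508 (2.67) and AOX1D in N9416 (-2.96).

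In 9 other cases a member passed in opposite directions in a pair of genotypes under the same contrast, with no overlap between groups in either, and the difference between the genotypes was not tested. With nanoP, the thorium effect in N8508 exceeded that in N9416 by 2.89 for AOX1A and 1.85 for NDB2 on the log2 scale. On full medium the effect in N8507 exceeded that in N9416 by 2.63 for AOX1A, 1.06 for NDB2 and a fitted 7.36 for AOX1D, the latter from a mock group of N8507 with 0 reads. For -P against mock, NDB2 in N8508 exceeded Col-0 by 1.69. For nanoP against -P, AOX1A exceeded N8508 by 2.83 in Col-0 and by 2.37 in N9416, and for nanoP against mock by 1.76 in N9416. No outlier test was applied to groups of 3.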

How the results depend on the processing

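The values here are numbers of members called. Here and in the paragraph below, smaller shifts in these numbers are not all listed. With all 66 libraries in 1 fit, 2 instead of 1 were called in Col-0 for -P against mock and for nanoP against -P, 3 instead of 1 for the difference of thorium effects between nanoP and -P, and in N8507 1 instead of 0 for nanoP against mock, for thorium with nanoP and for the difference between full medium and -P. In N9416 that fit called 1 instead of 2 for thorium on -P, and 0 instead of 2 for nanoP against -P and against mock. There it also called 4 instead of 6 for nanoP+Th against -P+Th and 2 instead of 3 for the difference between full medium and -P. For thorium on -P it called 3 instead of 4 in Col-0 and 7 instead of 6 in N8507. In N8508 it called 5 instead of 7, without UPOX (adjusted p = 0.186) and NAC013 (adjusted p = 0.181). DESeq2 called 2 instead of 1 for Col-0 -P against mock, 4 instead of 1 for the Col-0 difference between nanoP and -P, 1 instead of 0 in N8507 for thorium with nanoP and for the difference between full medium and -P, and 1 instead of 2 in N9416 for thorium on -P, as did the fit without a filter. Without the libraries of short effective length 2 instead of 1 were called for Col-0 -P against mock, 2 instead of 4 for thorium on -P in Col-0, 1 instead of 0 for the N8507 difference between full medium and -P and 0 instead of 1 for N8508 minus Col-0. With only the genotypes compared, 3 instead of 6 were called for N8507 against Col-0 on mock, 1 instead of 3 for the thorium effect of N8507 minus Col-0 and 2 instead of 1 for N9416 minus Col-0. The cause was not tested.

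Leaving out 1 library at a time gave 1 to 4 members (4 with all) for thorium on -P in Col-0 and 1 to 2 (2) in N9416. It gave 0 to 3 (4) for thorium on full medium in N8507 and 3 to 6 (6) in N9416. Counts ran from 0 to 1 for nanoP against -P in Col-0, 0 to 3 for the Col-0 difference between nanoP and -P, 0 to 1 in N8507 for -P against mock, nanoP against mock and the difference between full medium and -P, 0 to 2 for -P against mock in N8508, 2 to 5 for nanoP against mock in N8508 and 1 to 2 in N9416. For N8507 against Col-0 on mock it gave 3 to 5 (6), and for the thorium effect minus that of Col-0 1 to 3 in N8507, 0 to 1 in N8508 and 0 to 1 in N9416. Over the members' single values, leaving out a library ended 137 calls, made 24 and reversed 1, NAC013 in N8507 against Col-0 on mock (-0.22 without N8507 mock replicate 3, and up to 1.08 without another library), and the other alternatives ended 32 and made 22. With 3 libraries a group and up to 97 reads for UPOX, small differences could not be detected at this depth in UPOX or in the scarce AOX1C and AOX1D. For the other tested members this depended on the spread in each fit. NAC017 in N9416 passed at a log2 fold change of 0.18 for nanoP+Th against -P+Th. No paired analysis was possible because the labels give the libraries no replicate numbers shared between groups.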

Other observations

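AOX1C had almost no reads in Col-0 and some in each line. For N8508 and N9416, genotype and library series cannot be told apart in this. Its reads summed to 2 over 15 Col-0 libraries, both in 1 library, to 102 over 18 N8507 libraries, 308 over 15 N8508 libraries and 86 over 18 N9416 libraries. Within N8508 its mean level ran from 0.448 TPM on -P to 3.05 TPM on -P+Th. In N9416 it stood at 0.510 TPM on -P and 0.102 TPM on -P+Th, from 21 and 4 reads, and was not tested there.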
